A study of Mus musculus with 21 samples.

Results

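The 10 genes described here are Fhl1, Fhl2, Acta2, Tagln, Cnn1, Myl9, Tpm1, Tpm2, Actg2 and Srf. They were taken by symbol from a table of 24454 mouse genes, and all 10 were among the 13719 genes with enough counts to be tested. They were chosen because of their levels in these same libraries, so their own differences are given below as descriptions with errors and without a p. How many of the 10 lay past the threshold used for all genes is stated beside the share of all genes past it, as a description from which nothing is read.

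RNA from mouse embryonic fibroblasts (MEFs), connective tissue cells grown from embryos, was sequenced in 7 groups of 3 libraries that the labels call biological replicates. The cells of 3 groups were Rtel1f/f, in which both copies of Rtel1 are flanked by sites for the Cre recombinase: cells infected with a control adenovirus (+GFP), cells infected with a Cre adenovirus that deletes Rtel1 (+Cre), and +GFP cells given TMPyP4, a ligand that stabilises G-quadruplex DNA, at 10 μM for the last 48 h. In a further pair of groups Rtel1f/f cells, listed as a line of their own, carried an RTEL1 C1252A/C1255A transgene in a pBabe vector (CA below). The transgene holds a pair of cysteine to alanine changes, and these cells were infected with +GFP or +Cre. The last pair were Trf1f/f cells, a separate line in which Cre deletes the gene of the telomere protein TRF1 (Terf1), again +GFP or +Cre.

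Every group received an adenovirus and was collected 96 h after infection, so no group was left uninfected. The CA +GFP cells still held their floxed Rtel1 beside the transgene and no group here carried a wild-type transgene. Each genotype is listed as a cell line of its own, so genotype and the origin of a line cannot be told apart between lines. How many embryos gave the lines, and their age, is not given in the sources used here.

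SRF (serum response factor) is a transcription factor that binds a short DNA element, the CArG box. It acts with myocardin-related factors, which sit in the cytoplasm bound to actin monomers and enter the nucleus when actin polymerises, or with ternary complex factors, which respond to growth factor signalling and drive immediate early genes. The genes of the contractile apparatus of smooth muscle are well known targets of SRF, and fibroblasts switch many of them on when they spread under tension or turn into myofibroblasts. FHL1 and FHL2 are small proteins made of LIM domains, zinc-binding folds for protein contact, and FHL2 is known as a target and a partner of SRF.

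CArG boxes were looked for from 250 bases before to 50 bases after the RefSeq start sites of the genes (build GRCm38.p6), as CC, 6 bases that are each A or T, and GG, a pattern that reads the same on both strands. RefSeq windows were matched for 8 of the 10 genes (10 windows, with 2 start sites each for Fhl1 and Fhl2). No window was used for Tagln or Actg2. An exact box stood in 5 of the 10 windows and in 4 of the 8 genes, against 1.63% of 32851 windows of the same length over all genes. It stood in Fhl1, Fhl2, Myl9 and Srf. The windows of Acta2, Cnn1, Tpm1 and Tpm2 and the second start site of Fhl1 held none. With 1 mismatch allowed, 7 of the 10 windows and 21.1% of all windows held a match. The bases before the start sites of Fhl1, the gene that varied most, and of Srf, with 2 boxes, are shown first, followed by shorter stretches around the boxes of Fhl2 and Myl9 and around a match with 1 mismatch in Acta2. All are written 5′ to 3′ on the strand of the gene with the box in capitals.
Fhl1 start site 1, chrX:56779433-56779682, plus strand: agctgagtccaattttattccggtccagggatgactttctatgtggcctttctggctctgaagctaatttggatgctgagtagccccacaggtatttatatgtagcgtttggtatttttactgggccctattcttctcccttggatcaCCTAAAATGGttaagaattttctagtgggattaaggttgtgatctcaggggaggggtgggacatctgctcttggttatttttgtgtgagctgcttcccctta
Srf start site 1, chr17:46556163-46556412, minus strand: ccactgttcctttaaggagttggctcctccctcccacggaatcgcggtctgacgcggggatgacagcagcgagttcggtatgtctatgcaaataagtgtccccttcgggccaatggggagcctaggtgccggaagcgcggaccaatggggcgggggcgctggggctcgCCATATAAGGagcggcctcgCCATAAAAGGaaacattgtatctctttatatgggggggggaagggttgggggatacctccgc
Fhl2 start site 1, chr1:43163958-43164017, minus strand: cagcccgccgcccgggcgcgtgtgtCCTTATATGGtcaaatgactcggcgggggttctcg
Fhl2 start site 2, chr1:43196823-43196882, minus strand: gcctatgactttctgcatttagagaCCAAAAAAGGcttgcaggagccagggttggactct
Myl9 start site 1, chr2:156775278-156775337, plus strand: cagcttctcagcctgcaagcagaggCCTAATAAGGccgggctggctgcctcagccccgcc
Acta2 start site 1, chr19:34255423-34255482, minus strand: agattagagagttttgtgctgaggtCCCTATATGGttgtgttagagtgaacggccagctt
The box of the first Fhl1 start site began 102 bases before that site and that of Myl9 161 bases before its site. Those of Fhl2 began 31 and 96 bases before its sites, and those of Srf 82 and 62 bases before its site. A search for 4 runs of at least 3 G with loops of 1 to 7 bases, a usual description of sequence that can fold into a G-quadruplex, matched the sense strand of the Cnn1 and Srf windows (2 of 10, against 10.5% of all windows) and the antisense strand of the Myl9 window (1 of 10, against 9.35%). These matches describe the sequence and were not measured as binding or folding in these cells.

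Total counts were between 32069888 and 51938593 per library. Rtel1 was 61.8 ± 3.83 CPM (SD, n = 3) in Rtel1f/f +GFP and 29.5 ± 2.56 CPM in Rtel1f/f +Cre, and Terf1 was 29.3 ± 1.21 CPM in Trf1f/f +GFP and 0.0608 ± 0.043 CPM in Trf1f/f +Cre, with 5, 2 and 1 counts. In the CA cells Rtel1 reads of the transgene and the endogenous gene are not told apart, and their sum was 332 ± 4.80 CPM in the +GFP libraries against 265 ± 16.3 CPM after Cre. CPM are counts scaled to a common library size by the TMM method of edgeR, and values of single genes in these units are compared only within a gene. Sums of CPM over marker lists are not scaled for transcript length and mainly follow their most abundant genes.

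Markers of other cell types were looked at in the same libraries. Myod1 and Tmem8c (myomaker) of skeletal muscle were at 0 counts in all 21 libraries, and the 10 skeletal muscle markers summed to at most 1.53 CPM. The 7 markers of differentiated smooth muscle were uneven. Myocd, the SRF cofactor of these cells, reached at most 5 counts, Myh11, the smooth muscle myosin heavy chain, at most 0.768 CPM, and the channel subunit Kcnmb1 was at 0 in 15 of 21 libraries, whereas Smtn (smoothelin) reached 87.1 CPM and Lmod1 (leiomodin) 47.7 CPM. Together the 7 came to 76.0 to 87.2 CPM in Rtel1f/f +GFP, 38.8 to 85.4 CPM in Rtel1f/f +Cre, 58.2 to 79.6 CPM with TMPyP4, 44.0 to 92.5 CPM in CA +GFP, 40.2 to 85.8 CPM in CA +Cre, 95.1 to 121 CPM in Trf1f/f +GFP and 113 to 128 CPM in Trf1f/f +Cre. The fibroblast markers looked at were Col1a1, Col1a2, Col3a1, Pdgfra, Pdgfrb, Vim, Dcn, Thy1 and Lum. All 9 were tested, and 2 of them (Thy1 and Lum) were under 1 CPM in the groups of Rtel1f/f origin. Thy1 was 222 to 269 CPM in the 6 Trf1f/f libraries. The summed level of the 9, most of it from the 3 collagens, was 12822 to 13738 CPM in Rtel1f/f +GFP and 4161 to 6508 CPM in Rtel1f/f +Cre. It was 6231 to 9293 CPM with TMPyP4, 4837 to 7868 CPM in CA +GFP and 4023 to 6732 CPM in CA +Cre. It was 14103 to 20490 CPM in Trf1f/f +GFP and 14911 to 18096 CPM in Trf1f/f +Cre. By edgeR 5 of the 9 fell and 2 rose after Rtel1 deletion (77.8% called, against 43.0% of all genes), and 5 fell after TMPyP4 (55.6%, against 30.0%). Dcn was 12.8 to 15.1 CPM in Rtel1f/f +GFP and 38.9 to 39.7 CPM in Rtel1f/f +Cre. Vim was 1290 to 1490 CPM and 1464 to 1756 CPM in the same groups, which overlapped. Thy1 was near 0 in both but higher with +Cre, at 0.067, 0.041 and 0.020 CPM in +GFP and 0.33, 0.17 and 0.19 CPM in +Cre. The part of these markers in the results below was not tested, and in bulk RNA fewer cells of a type and less RNA per cell cannot be told apart.

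Fhl1, a LIM protein abundant in striated muscle, varied more than any other of the 10 genes. Its level was 5.36, 4.54 and 4.55 CPM in the Rtel1f/f +GFP libraries, 22.1, 20.05 and 18.8 CPM in Rtel1f/f +Cre, and 36.6, 39.3 and 37.3 CPM with TMPyP4. It was 31.9, 35.8 and 32.4 CPM in CA +GFP and 22.3, 22.0 and 21.9 CPM in CA +Cre. It was 459, 459 and 445 CPM in Trf1f/f +GFP and 437, 426 and 475 CPM in Trf1f/f +Cre. The Rtel1f/f +GFP libraries were thus the lowest and the Trf1f/f libraries the highest, with 94.3-fold between the lowest and the highest group mean. In order of their means the groups were Rtel1f/f +GFP, Rtel1f/f +Cre, CA +Cre, CA +GFP, TMPyP4, Trf1f/f +Cre and Trf1f/f +GFP, and only the neighbours Rtel1f/f +Cre and CA +Cre, and the Trf1f/f pair, overlapped. Relative to its own +GFP control, Fhl1 was 4.22-fold higher after Rtel1 deletion (log2 fold change 2.08 ± 0.078 SE, 95% interval 1.91 to 2.24) and 7.83-fold higher with TMPyP4 (2.97 ± 0.080, 2.80 to 3.14). In CA cells it was 1.51-fold lower with Cre (log2 -0.60 ± 0.073, -0.75 to -0.44), and in Trf1f/f cells the log2 difference was -0.027 ± 0.071 (-0.18 to 0.13).

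Fhl2 had a far smaller range, 1.3-fold between group means. It was 75.8, 70.7 and 74.0 CPM in Rtel1f/f +GFP, 98.3, 92.9 and 95.5 CPM in Rtel1f/f +Cre and 93.3, 86.9 and 87.5 CPM with TMPyP4. The other 12 libraries held 82.5 to 97.5 CPM. The 3 Rtel1f/f +GFP libraries were below all the others, and the other groups overlapped with their neighbours. The log2 difference from +GFP was 0.38 ± 0.052 after Rtel1 deletion and 0.28 ± 0.052 with TMPyP4, and it was -0.031 ± 0.052 for CA +Cre and 0.064 ± 0.052 for Trf1f/f +Cre against their own controls.

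**Figure D1:**
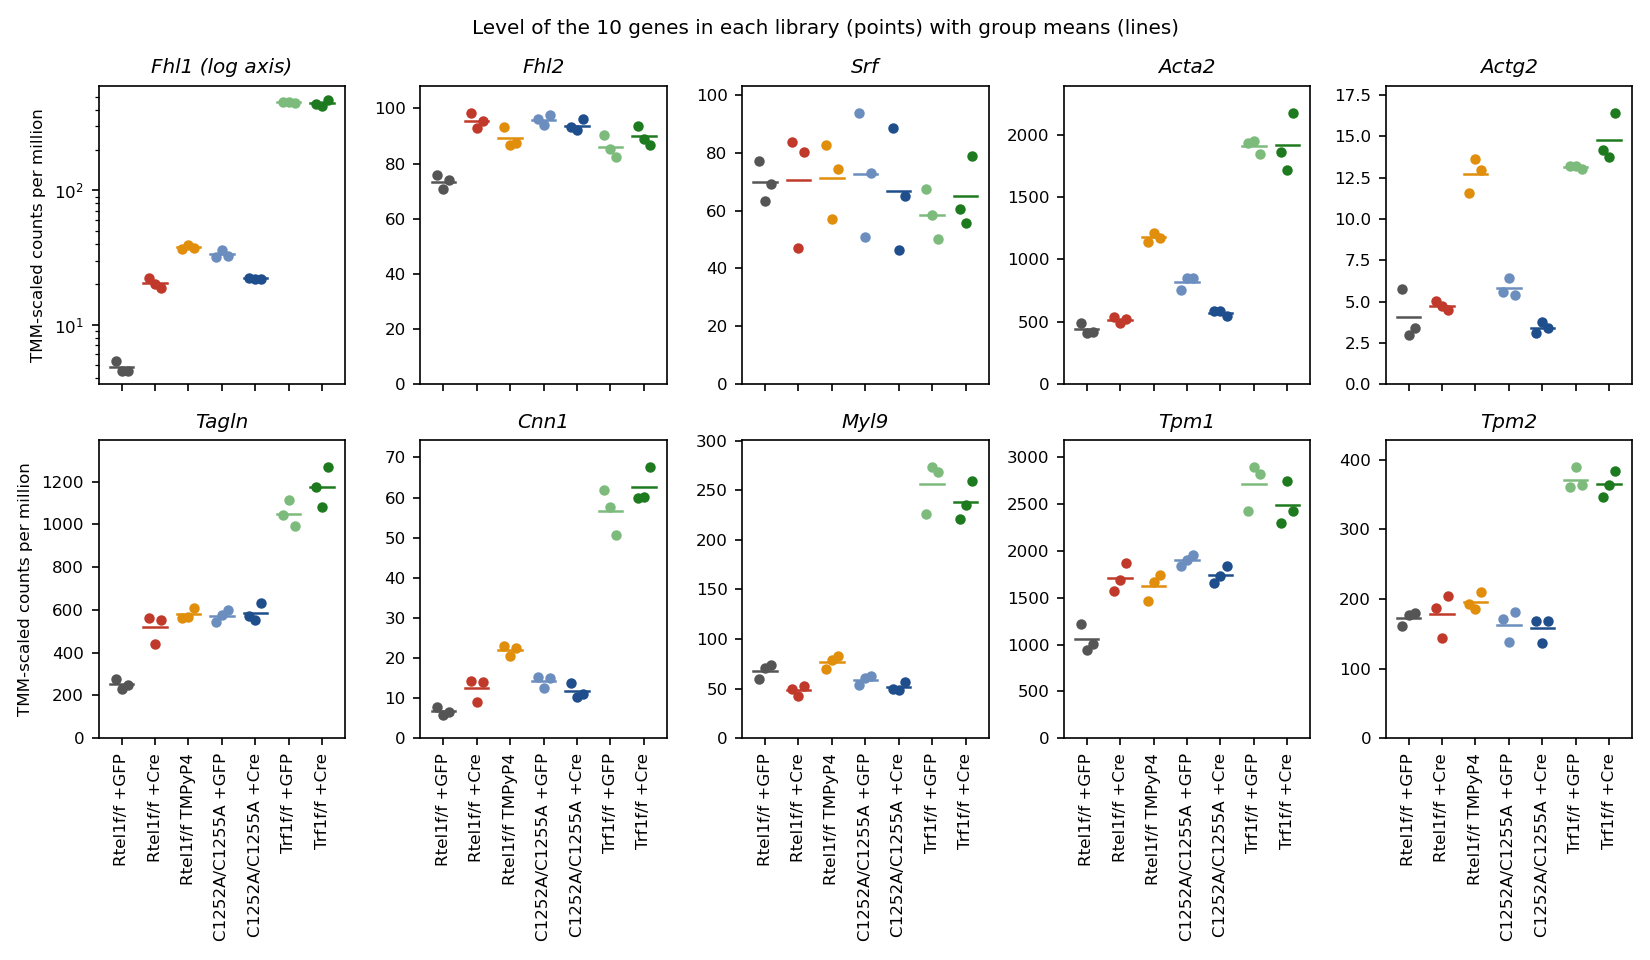
Level of each of the 10 genes in TMM-scaled CPM (vertical axis, from 0 except for the log axis of Fhl1) in the 7 groups (horizontal axis), with 1 point per library and a line at the mean of 3. Fhl1 runs from 4.54 to 475 CPM, the Trf1f/f libraries stand above the rest for 7 genes, and the group means of Srf lie between 58.6 and 72.5 CPM.

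Srf itself had the widest error of the 10 genes in the 4 comparisons with the own control. Its means were between 58.6 ± 8.67 CPM in Trf1f/f +GFP and 72.5 ± 21.4 CPM in CA +GFP, every group overlapped with its neighbours, and the log2 differences from the own control were 0.011 ± 0.26 (Rtel1 deletion), 0.031 ± 0.26 (TMPyP4), -0.12 ± 0.26 (CA +Cre) and 0.15 ± 0.26 (Trf1f/f +Cre). The wide error came from the libraries within each group. In Rtel1f/f +Cre, Srf was 83.8, 47.1 and 80.3 CPM in replicates 1, 2 and 3, and in CA +GFP it was 93.7, 51.0 and 72.9 CPM. Replicate 2 was the lowest of its group in 6 of 7 groups, at 57.4% to 86.5% of the mean of the other two in those 6. A low replicate 2 was not particular to Srf. In Rtel1f/f +Cre, replicates 1, 2 and 3 held 78, 32.5 and 74.1 CPM of Smtn and 1899, 644 and 1353 CPM of Col1a1. Other genes did not follow, such as Rock1 with 104, 114 and 97.1 CPM. The reason was not tested. Intervals for the effect of Rtel1 deletion on Srf ran from -0.55 to 0.57 on the log2 scale, so a change of less than about this size was not detectable in these libraries. With replicate number as a block the error was 0.17 in place of 0.26.

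**Figure D2:**
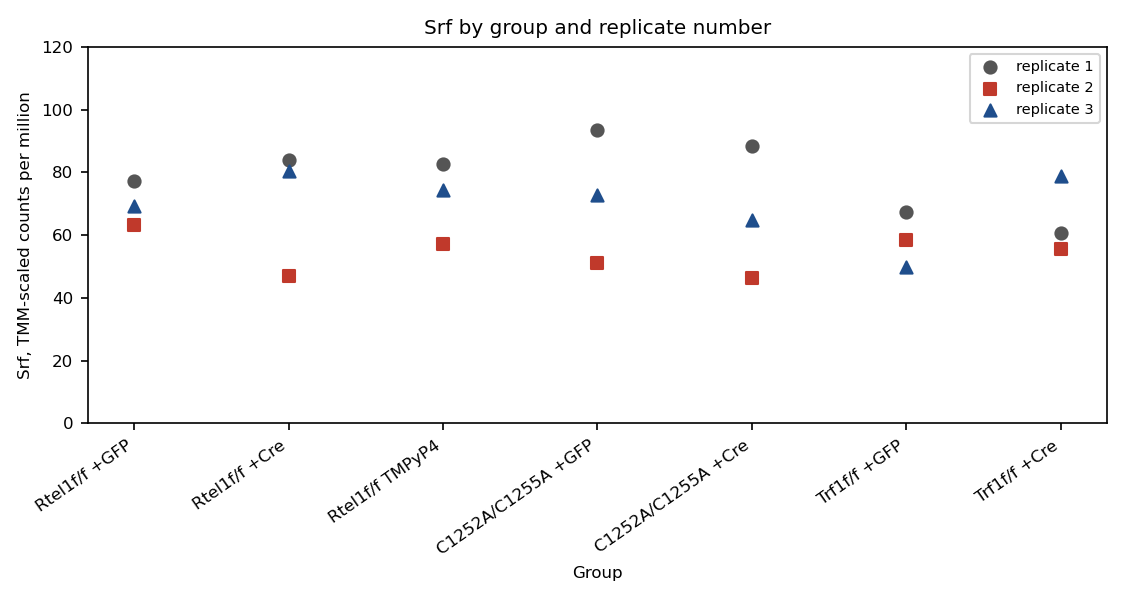
Srf in TMM-scaled CPM (vertical axis, from 0) in each of the 7 groups (horizontal axis), with 1 mark per library and a mark shape for each replicate number. The group means lie between 58.6 and 72.5 CPM, while replicate 2 is the lowest of its group in 6 of 7 groups.

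Acta2 and Actg2 encode the actins of vascular and of enteric smooth muscle. Acta2 was 489, 406 and 422 CPM in Rtel1f/f +GFP, 539, 490 and 521 CPM in Rtel1f/f +Cre, and 1141, 1211 and 1175 CPM with TMPyP4. It was 755, 852 and 854 CPM in CA +GFP, 589, 585 and 547 CPM in CA +Cre, and 1718 to 2174 CPM in the 6 Trf1f/f libraries. The lowest Rtel1f/f +Cre library was less than 1 CPM above the highest +GFP library, whereas the TMPyP4 libraries were far above both. Acta2 was 1.18-fold of the control after Rtel1 deletion (log2 0.23 ± 0.084, 0.053 to 0.41), 2.68-fold with TMPyP4 (1.42 ± 0.086, 1.24 to 1.61), and in CA cells 1.43-fold lower with Cre (-0.52 ± 0.084, -0.70 to -0.33).

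Actg2 was the sparsest of the 10 genes, with 144 to 647 counts per library. It was 5.74, 3.00 and 3.39 CPM in Rtel1f/f +GFP, 5.06, 4.71 and 4.50 CPM in Rtel1f/f +Cre and 11.6, 13.7 and 12.9 CPM with TMPyP4. The +GFP libraries enclosed the +Cre libraries, and replicate 1 of +GFP stood apart from the other two. The log2 difference was 0.24 ± 0.17 after Rtel1 deletion. Without that replicate it was 0.58, past the threshold used below, and without replicate 2 of +GFP it was 0.080. With TMPyP4 the log2 difference was 1.66 ± 0.17, a 3.15-fold level. In CA cells it was 5.56, 6.43 and 5.41 CPM in the +GFP libraries and 3.08, 3.78 and 3.38 CPM in the +Cre libraries, 1.70-fold lower with Cre (log2 -0.77 ± 0.17).

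Tagln (transgelin, SM22) and Cnn1 (calponin) are actin-binding proteins used as markers of contractile cells. Tagln was 278, 231 and 251 CPM in Rtel1f/f +GFP, 562, 440 and 552 CPM in Rtel1f/f +Cre, and 564, 569 and 611 CPM with TMPyP4. It was 542 to 634 CPM in the 6 CA libraries and 995 to 1268 CPM in the 6 Trf1f/f libraries. Apart from Rtel1f/f +GFP, the groups of Rtel1f/f origin overlapped with their neighbours in order of level, though the highest Rtel1f/f +Cre library was just below the lowest TMPyP4 library. Tagln was 2.05-fold higher after Rtel1 deletion (log2 1.03 ± 0.095) and 2.30-fold with TMPyP4 (1.199 ± 0.095).

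Cnn1 was 7.84, 5.76 and 6.63 CPM in Rtel1f/f +GFP, 14.4, 9.01 and 14.03 CPM in Rtel1f/f +Cre and 23.0, 20.5 and 22.4 CPM with TMPyP4. Replicate 2 of +Cre lay close to the control libraries but still above them. In CA cells it was 15.2, 12.6 and 15.1 CPM in the +GFP libraries and 13.8, 10.3 and 10.96 CPM in the +Cre libraries, and in Trf1f/f cells it was 50.7 to 67.5 CPM. The log2 difference was 0.89 ± 0.16 after Rtel1 deletion (1.06 without replicate 2 of +Cre and 0.77 without its replicate 1). With TMPyP4 it was 1.70 ± 0.16, a 3.26-fold level.

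Myl9, the regulatory light chain of smooth muscle and non-muscle myosin, went the other way after Rtel1 deletion. It was 59.5, 70.8 and 73.4 CPM in Rtel1f/f +GFP and 49.6, 42.6 and 52.9 CPM in Rtel1f/f +Cre, without overlap. With TMPyP4 it was 70.1, 78.9 and 82.6 CPM, which overlapped with +GFP. Myl9 was 1.41-fold lower after Rtel1 deletion (log2 -0.49 ± 0.11, -0.72 to -0.26) and differed by 0.19 ± 0.11 (-0.042 to 0.41) with TMPyP4. It was 49.1 to 63.0 CPM in the CA libraries and 221 to 273 CPM in the Trf1f/f libraries.

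The tropomyosins Tpm1 and Tpm2, which lie along actin filaments, differed from each other. Tpm1 was 1223, 946 and 1007 CPM in Rtel1f/f +GFP, 1568, 1684 and 1869 CPM in Rtel1f/f +Cre and 1468, 1669 and 1742 CPM with TMPyP4. The Rtel1f/f +GFP libraries were below all others for Tpm1, and the log2 differences were 0.69 ± 0.10 after Rtel1 deletion and 0.62 ± 0.10 with TMPyP4. Tpm2 was 161 to 180 CPM in Rtel1f/f +GFP, 144 to 204 CPM in Rtel1f/f +Cre and 186 to 210 CPM with TMPyP4, with log2 differences of 0.049 ± 0.12 and 0.19 ± 0.12. Its +GFP libraries lay within the range of the +Cre libraries and below the TMPyP4 libraries.

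**Figure D3:**
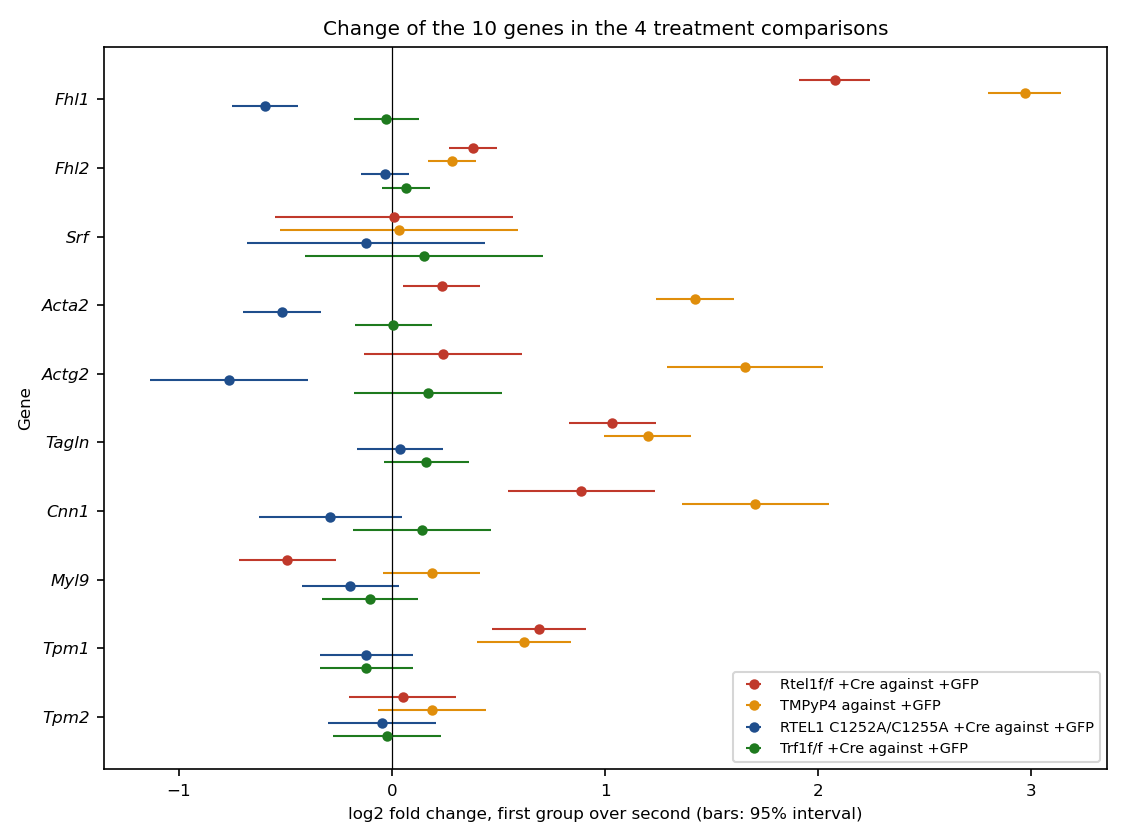
Log2 fold change of the 10 genes (horizontal axis) in 4 comparisons with the own +GFP control, with points at the estimate and bars for the 95% interval. Fhl1 has the largest values after Rtel1 deletion (2.08) and TMPyP4 (2.97), Myl9 is below 0 after Rtel1 deletion, and the intervals for Trf1f/f +Cre include 0 for all 10 genes.

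Between genes, levels were compared in the deposited TPM, which are scaled for transcript length. Tpm1 was the most abundant of the 10 genes in every group, at 1389 ± 175 TPM in Rtel1f/f +GFP and 3483 ± 253 TPM in Trf1f/f +GFP, and Acta2 and Tagln came next in every group. Fhl1 was the least abundant in Rtel1f/f +GFP, at 4.32 ± 0.42 TPM, below Cnn1 (7.38 ± 1.02 TPM) and Actg2 (7.003 ± 2.51 TPM). In Trf1f/f +GFP it was 408 ± 11.2 TPM and ranked 5 of the 10. Summed over the 10 genes the level was 2449 to 2822 TPM in Rtel1f/f +GFP, 3191 to 3396 TPM in Rtel1f/f +Cre, 3785 to 4074 TPM with TMPyP4 and 7810 to 8205 TPM in Trf1f/f +GFP.

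Over the whole set 43.0% of the 13719 genes tested passed an adjusted p of 0.01 between Rtel1f/f +Cre and +GFP by edgeR's quasi-likelihood test. Of the 10 genes 6 were past it, 5 higher (Fhl1, Tagln, Cnn1, Tpm1 and Fhl2; 22.0% of all genes) and 1 lower (Myl9). The libraries of both groups did not overlap for 7 of the 10 and for 61.4% of all genes. Without replicate 1 of Rtel1f/f +GFP, Acta2 and Actg2 came past the threshold as well, and without replicate number 2 in every group Myl9 was lost. Their median log2 difference was 0.31 and that of all genes was -0.034. With TMPyP4 the share over all genes was 30.0%, and 7 of the 10 were past the threshold, all higher (Fhl1, Cnn1, Actg2, Acta2, Tagln, Tpm1 and Fhl2; 16.6% of all genes), with a median of 0.91 against -0.010. Libraries did not overlap for 8 of the 10, as for 57.8% of all genes. Fewer of the 10 were past the threshold without replicate number 2 in every group. Because the genes were picked from these contrasts, nothing is read from these counts. Both contrasts use the same 3 Rtel1f/f +GFP libraries. The scale moved the small differences. In deposited TPM the median gene lay at -0.24 after Rtel1 deletion and -0.17 with TMPyP4 on the log2 scale, and there Acta2, Tpm2, Actg2 and Srf after deletion, and Myl9, Tpm2 and Srf with TMPyP4, had the opposite sign. Relative to that median all 10 genes kept their sign in the 4 comparisons with the own control.

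Deletion and ligand were also compared directly. Rtel1f/f +Cre and TMPyP4 libraries differed at the same threshold in 15.2% of all genes and in 5 of the 10, all lower with +Cre (9.09% of all genes). Actg2 was 2.67-fold lower (log2 -1.42 ± 0.17), Acta2 2.28-fold (-1.19 ± 0.085), Fhl1 1.86-fold (-0.89 ± 0.073), Cnn1 1.76-fold (-0.82 ± 0.16) and Myl9 1.60-fold (-0.68 ± 0.11). Tagln (-0.17 ± 0.094), Tpm1 (0.070 ± 0.10), Fhl2 (0.099 ± 0.052), Tpm2 (-0.14 ± 0.12) and Srf (-0.020 ± 0.26) were not past it. The Tagln libraries of +Cre were all below those of TMPyP4 without being past the threshold.

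In CA cells, which ask what Cre does when the mutant helicase is present, 2 of the 10 genes were past the threshold, Fhl1 and Acta2, both lower with Cre, against 1.09% of all genes (0.569% lower). Neither was past it when only these 2 groups were fitted, or without replicate number 2 in every group, and Acta2 alone was lost without CA +GFP replicate 3 or CA +Cre replicate 3. Libraries did not overlap for 3 of the 10, Actg2 in addition, as for 16.2% of all genes. The 10 genes had a median log2 difference of -0.16, against 0.0049 for all genes. With replicate number as a block, which these 2 groups share, the same 2 genes were past the threshold, and the count over all genes went from 150 to 289. The effect of Cre in Rtel1f/f cells minus that in CA cells was 2.67 ± 0.11 for Fhl1 and 0.75 ± 0.12 for Acta2 on the log2 scale, 1.00 ± 0.13 for Tagln, 1.18 ± 0.22 for Cnn1, 1.00 ± 0.24 for Actg2, 0.81 ± 0.14 for Tpm1 and 0.41 ± 0.074 for Fhl2. These 7 were past the threshold for the difference, as were 25.1% of all genes (12.8% higher). Without replicate number 2 in every group only Acta2, Cnn1, Fhl1 and Tagln of them stayed past it.

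The CA +GFP control differed from the Rtel1f/f +GFP control. It stood higher for Fhl1 (log2 2.79 ± 0.080), Tagln (1.18 ± 0.095), Cnn1 (1.08 ± 0.16), Acta2 (0.90 ± 0.085), Tpm1 (0.84 ± 0.10) and Fhl2 (0.38 ± 0.052), which were the 6 of 10 past the threshold, against 44.7% of all genes (22.6% higher). Set beside CA +GFP (33.4 ± 2.13 CPM) rather than beside Rtel1f/f +GFP (4.82 ± 0.47 CPM), the Fhl1 level of Rtel1f/f +Cre (20.3 ± 1.71 CPM) was the lower one. For 6 of the 10 genes (Fhl1, Fhl2, Acta2, Tagln, Cnn1 and Tpm1) the 3 Rtel1f/f +GFP libraries were below all 18 others, as for 8.37% of all genes. Acta2 in Rtel1f/f +Cre (516 ± 24.7 CPM) was likewise above Rtel1f/f +GFP (439 ± 44.2 CPM) and below CA +GFP (820 ± 56.5 CPM).

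In Trf1f/f cells the 95% intervals for the effect of Cre included 0 for all 10 genes, which does not show that they were equal. By edgeR 0 of the 10 were past the threshold (0 at an unadjusted p under 0.05, and 0 by DESeq2), beside 3.42% of all genes. Libraries of both groups did not overlap for 1 of the 10, Actg2, and for 26.9% of all genes. Their log2 differences were between -0.12 (Tpm1) and 0.17 (Actg2). The interval was -0.18 to 0.19 for Acta2 and -0.039 to 0.36 for Tagln, and on the TPM scale the small difference of Acta2 had the opposite sign. The effect of Cre in Rtel1f/f cells minus that in Trf1f/f cells was 2.10 ± 0.11 for Fhl1, 0.87 ± 0.13 for Tagln, 0.81 ± 0.14 for Tpm1 and 0.32 ± 0.074 for Fhl2. These 4 were past the threshold for the difference, as were 30.2% of all genes (15.8% higher). Acta2 was at 0.23 ± 0.12, Cnn1 at 0.75 ± 0.22 and Actg2 at 0.070 ± 0.24.

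The Trf1f/f line itself carried far more of these transcripts than the Rtel1f/f line. Between the +GFP groups Fhl1 was 94.3-fold higher (log2 6.56 ± 0.092), Cnn1 8.41-fold (3.07 ± 0.17), Acta2 4.35-fold (2.12 ± 0.088), Tagln 4.15-fold (2.05 ± 0.097) and Myl9 3.77-fold (1.92 ± 0.11). Actg2 (1.70 ± 0.17), Tpm1 (1.36 ± 0.10), Tpm2 (1.11 ± 0.12) and Fhl2 (0.23 ± 0.052) were also higher and Srf was at -0.25 ± 0.26. So 9 of 10 were past the threshold, as were 54.9% of all genes (30.3% higher), and for 7 of 10 all 6 Trf1f/f libraries were above the other 15, as for 21.1%. Genotype and cell line cannot be told apart here. Xist, the RNA that silences an X chromosome, was looked at after its values were seen because Fhl1 lies on the X chromosome (chrX:56731209-56793346, GRCm38.p6). Its means were 494 to 735 CPM in the 5 groups of Rtel1f/f origin and 0.194 and 0.233 CPM in the Trf1f/f groups, and its part in the Fhl1 difference was not tested.

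The other genes of the pathway were taken as 5 lists with 89 genes tested in all. By edgeR 41 of the 89 passed after Rtel1 deletion (43.0% of all genes). Between the CA and Rtel1f/f +GFP controls, both without Cre, 40 passed (44.7% of all genes). The part of this baseline in the list results below was not tested. After Rtel1 deletion, regulators of SRF (its cofactors and upstream regulators of actin) gave 4 that rose and 4 that fell of 17 tested (47.1%, against 43.0% of all genes), with a median log2 difference of -0.073 against -0.034 for all genes. Rock1 and Rock2, kinases that build actin tension, rose (edgeR log2 0.41 ± 0.072, adjusted p = 0.000115, and 0.33 ± 0.093, adjusted p = 0.00537), as did the formin Diaph3 (0.38 ± 0.087, adjusted p = 0.00126). Rnd3, a small GTPase that loosens actin stress fibres, fell (-0.79 ± 0.11, edgeR adjusted p = 9.89e-06), and so did the guanine nucleotide exchange factor Arhgef2 (-0.75 ± 0.069, adjusted p = 7.24e-08) and the SRF cofactor Mkl2 (Mrtfb; -0.64 ± 0.15, adjusted p = 0.00117). The other cofactor, Mkl1 (Mrtfa), was at -0.27 ± 0.29 (edgeR adjusted p = 0.437). Its +Cre libraries held 70.9, 34.6 and 61.9 CPM. The difference was -0.037 without +Cre replicate 2 and -0.48 without +Cre replicate 1. With TMPyP4 only Rock2 (0.51 ± 0.093, edgeR adjusted p = 0.000297) and Rock1 (0.40 ± 0.072, adjusted p = 0.000231) of the 17 passed (11.8%, against 30.0% of all genes), and Mkl2 was at -0.45 ± 0.15 (adjusted p = 0.0202).

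Contractile and adhesion genes other than the 10 gave 7 that rose and 4 that fell of 32 after Rtel1 deletion, 34.4% against 43.0% of all genes (median -0.041 against -0.034). With TMPyP4 11 rose and 2 fell, 40.6% against 30.0% of all genes (median 0.19 against -0.010). After deletion Actn1, an actin crosslinker of adhesions, rose by 0.53 ± 0.10 (edgeR adjusted p = 0.000215) and the actin-severing protein destrin (Dstn) by 0.48 ± 0.10 (adjusted p = 0.000843). Mylk, the kinase that phosphorylates the light chain Myl9, fell (-0.90 ± 0.13, edgeR adjusted p = 1.12e-05), from 9.45 ± 0.89 to 5.06 ± 0.41 CPM. In the undeleted CA +GFP libraries Mylk was also low, at 4.48, 3.47 and 3.84 CPM. Rnd3 was 107.1, 134.1 and 133.5 CPM there, which overlapped with Rtel1f/f +GFP (122.6, 144.5 and 132.9 CPM). Csrp2 (-0.40 ± 0.090, adjusted p = 0.00102) and Pdlim5 (-0.26 ± 0.055, adjusted p = 0.000667) fell as well by edgeR. With TMPyP4 Lmod1, which nucleates smooth muscle actin, had the largest rise of the list (1.01 ± 0.11, edgeR adjusted p = 2.77e-06, from 5.74 ± 0.46 to 11.5 ± 1.57 CPM). Filip1l (0.70 ± 0.094, adjusted p = 1.5e-05) rose too, and Mylk (-1.09 ± 0.13, adjusted p = 4.24e-06) and Csrp2 (-0.44 ± 0.090, adjusted p = 0.000704) fell by edgeR. Of the 7 markers of differentiated smooth muscle 5 were tested, none passed after Rtel1 deletion and 1, Lmod1, with TMPyP4.

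Immediate early genes, the targets SRF reaches with ternary complex factors, were split. After Rtel1 deletion 3 rose and 3 fell of 12 (6 of 12 called, against 43.0% of all genes), and with TMPyP4 2 rose and 3 fell (41.7%, against 30.0%). Fos fell from 22.3 ± 5.03 to 6.42 ± 1.12 CPM after deletion (-1.80 ± 0.25, edgeR adjusted p = 1.01e-05) and to 8.66 ± 1.40 CPM with TMPyP4 (-1.37 ± 0.24, adjusted p = 0.000254). Egr2 (-1.55 ± 0.26, adjusted p = 8.96e-05) and Egr1 (-0.58 ± 0.16, adjusted p = 0.00612) fell after deletion, and Egr2 (-1.17 ± 0.26, adjusted p = 0.00157) and Egr3 (-0.79 ± 0.18, adjusted p = 0.00174) with TMPyP4, all by edgeR. Ier3 (1.16 ± 0.14, adjusted p = 2.19e-06) and the phosphatase Dusp1 (0.69 ± 0.12, adjusted p = 0.000137) rose after deletion by edgeR, and both rose with TMPyP4 (Dusp1 1.38 ± 0.13, adjusted p = 2.81e-07; Ier3 0.77 ± 0.14, adjusted p = 0.000297).

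Of the other LIM genes 1 rose and 4 fell of 12 tested after Rtel1 deletion (41.7%, against 43.0% of all genes), and 1 rose with TMPyP4 (8.33%, against 30.0%). Pdlim1, which links actinin to kinases, was the one that rose in both, by 0.86 ± 0.079 (edgeR adjusted p = 7.02e-08) and by 0.86 ± 0.079 (adjusted p = 3.14e-07). Pdlim4 (-1.15 ± 0.31, adjusted p = 0.00515), Crip1 (-0.71 ± 0.21, adjusted p = 0.00806) and Lpp (-0.56 ± 0.12, adjusted p = 0.000826) fell after deletion by edgeR. The near relatives of Fhl1 and Fhl2 did not pass. Fhl3 was at -0.24 ± 0.13 after deletion (edgeR adjusted p = 0.135) and -0.20 ± 0.13 with TMPyP4 (adjusted p = 0.254). Fhl4 was 0.621 to 1.86 CPM in its group means, and Fhl5 was at 0 in all groups of Rtel1f/f origin.

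The TGF-beta pathway, a known inducer of contractile genes in fibroblasts, gave 3 that rose and 8 that fell of 16 after Rtel1 deletion (68.8%, against 43.0% of all genes), and 2 and 3 with TMPyP4 (31.2%, against 30.0%). Genes of the ligands were among those that fell. Tgfb3 (-1.35 ± 0.11, adjusted p = 1.16e-08) and Tgfb1 (-1.30 ± 0.29, adjusted p = 0.00128) fell after deletion, and Tgfb1 (-1.18 ± 0.29, adjusted p = 0.00401) and Tgfb2 (-0.55 ± 0.11, adjusted p = 0.000568) with TMPyP4, by edgeR. The inhibitory Smads moved apart after deletion, Smad6 down (-1.90 ± 0.38, edgeR adjusted p = 0.000416) and Smad7 up (0.38 ± 0.092, adjusted p = 0.00183), and the repressor Skil rose (0.26 ± 0.067, adjusted p = 0.00276). With TMPyP4 the signal transducers Smad2 rose (0.29 ± 0.066, edgeR adjusted p = 0.00199) and Smad3 fell (-0.27 ± 0.064, adjusted p = 0.00245).

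**Figure D4:**
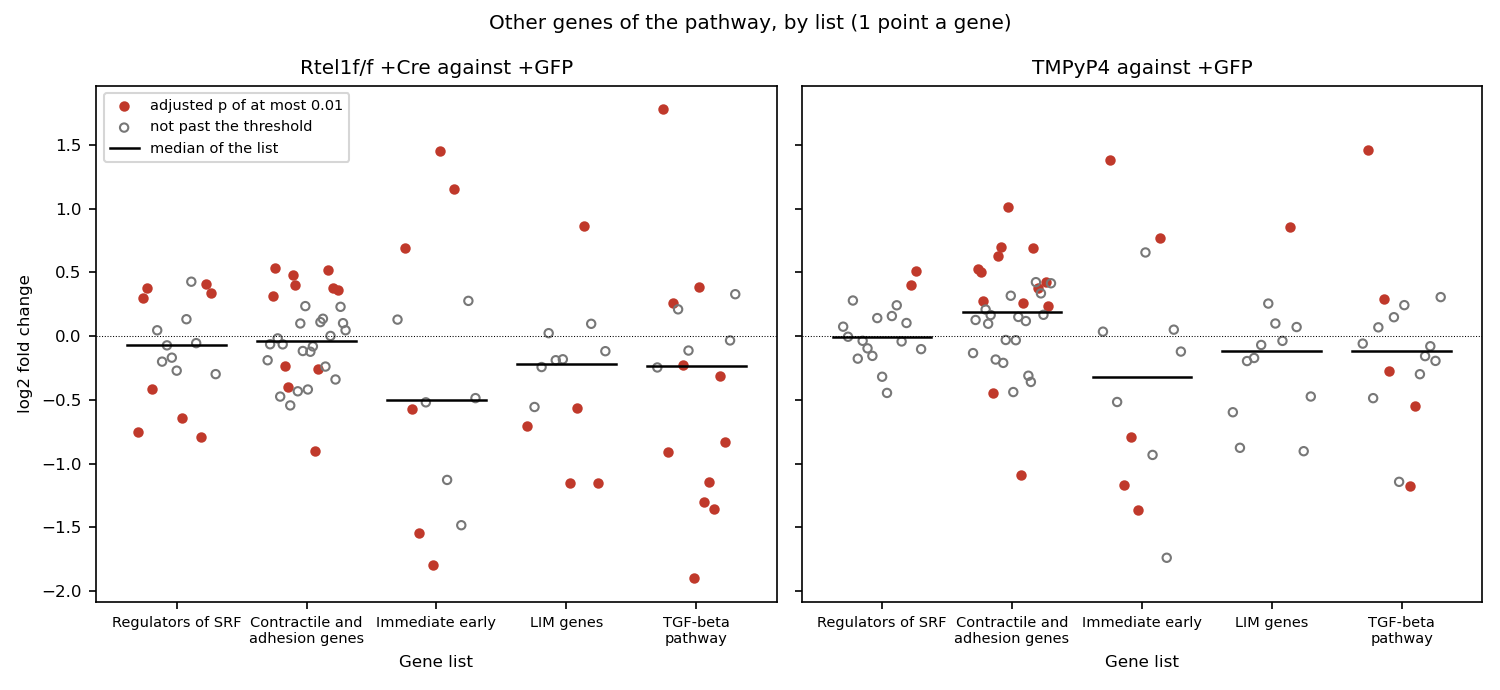
Log2 fold change (vertical axis) of each tested gene of the 5 lists (horizontal axis), after Rtel1 deletion on the left and with TMPyP4 on the right. Filled points passed an adjusted p of 0.01, open points did not, and the line is the median of the list. Points lie on both sides of 0 in every list, and the contractile list has 11 filled points above 0 with TMPyP4.

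In CA cells +Cre against +GFP gave 1 gene of the 89, Tgfb3, which fell (-0.57 ± 0.11, edgeR adjusted p = 0.00469), with 20 at an unadjusted p under 0.05 and 3 past the threshold by DESeq2. With replicate number as a block 3 passed, Tgfb3 (-0.57 ± 0.088, edgeR adjusted p = 0.000869), Rnd3 (-0.30 ± 0.050, adjusted p = 0.0016) and Lpp (-0.42 ± 0.089, adjusted p = 0.00944), all lower with Cre. In Trf1f/f cells 0 of the 89 passed by edgeR, 13 had an unadjusted p under 0.05 and 2 passed by DESeq2.

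The genes whose level was most like that of Fhl1 were named by Pearson's r of log2 CPM over the 21 libraries, among 10229 genes. They were Glipr1 (0.988), Fam150a (0.987), Ctgf (0.985), Pip4k2a (0.981) and Anxa7 (0.979), and over the 15 libraries without Trf1f/f cells these r were 0.95, 0.937, 0.954, 0.885 and 0.907. Ctgf (Ccn2), a matrix protein, was 64.7 ± 4.74 CPM in Rtel1f/f +GFP, 154 ± 6.16 CPM in Rtel1f/f +Cre, 164 ± 10.2 CPM with TMPyP4 and 506 ± 59.9 CPM in Trf1f/f +GFP. Glipr1 was 0.645 ± 0.097 CPM in Rtel1f/f +GFP and 14.6 ± 1.80 CPM in Trf1f/f +GFP. The mean profile of the 7 contractile genes was most like Fam150a (0.977), Sync (0.971), Wnt9a (0.967), Glipr1 (0.967) and Htatip2 (0.966), with r of 0.859, 0.84, 0.796, 0.789 and 0.782 over the 15 libraries. Fam150a, Glipr1, Htatip2 and Sync reached the mean of 5 CPM only through the Trf1f/f libraries. In the groups of Rtel1f/f origin the highest group mean was 1.01 CPM for Fam150a, 2.26 CPM for Glipr1 and 3.32 CPM for Htatip2. Their r over the 15 libraries therefore rest on low levels. The points of these correlations share libraries, and the Trf1f/f libraries stand apart from the others, so the correlations are given as descriptions. Among the 10 genes, Fhl1 had r of 0.958 with Tagln, 0.977 with Cnn1 and -0.228 with Srf over 21 libraries, and of 0.945, 0.879 and -0.0047 over the 15. With Myl9 it was 0.881 over the 21 libraries and -0.064 over the 15.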

How the data were processed

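RNA was sequenced as strand-specific single-end libraries. Per the labels and the submitters' processing notes, the authors used cutadapt 1.9.1 for trimming, STAR 2.5.2a for alignment and RSEM 1.3.0 for quantification on RefSeq gene models of mm10. They deposited RSEM expected counts, here all whole numbers, and TPM, which RSEM scales by transcript length and library total. The notes also name DESeq2 1.28.0, of which no output was used here.

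Expected counts were rounded, filtered with filterByExpr by group, scaled by TMM and tested with edgeR 4.0.16 (R 4.3.3, limma 3.58.1; robust quasi-likelihood F-test, 2-sided, 1 coefficient for each of the 7 groups, 21 libraries, 14 residual degrees of freedom). Benjamini-Hochberg adjustment ran over all 13719 genes tested, with a threshold of 0.01, and standard errors are the absolute log2 fold change over the square root of F. The study's own threshold is the same. TPM ratios were taken over genes with a mean of at least 1 TPM. Total counts of 32069888 or more per library left the spread between libraries, not counting error, as the main limit for all but the sparsest genes. p-values measure the spread between libraries that the labels call biological replicates.

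The members and the lists were chosen with earlier results of these data known, and no p is given for a member. From each list up to 3 genes that rose and 3 that fell are named, those with the largest change among genes past the threshold, whose libraries did not overlap and whose mean reached 5 CPM; Mkl1, Mkl2, Fhl3, Fhl4 and Fhl5 are named in any case. Some genes that the rule picks are not reported here by name, and they stay in the counts and medians of their lists. The pairing of libraries by replicate number was examined by correlating, over 11840 genes, how libraries with 1 number deviated from the mean of their group. All 3 pairs were over 0.1 in CA +Cre against +GFP (0.864, 0.839 and 0.424) and in Rtel1f/f +Cre against TMPyP4 (0.724, 0.758 and 0.409), a pairing seen in the data and not stated by the labels. In the other comparisons not all 3 were over 0.1, though Trf1f/f +Cre against +GFP gave 0.552, 0.358 and -0.0998. Rtel1f/f +Cre against +GFP gave -0.0172, 0.058 and 0.131, and TMPyP4 against +GFP 0.0242, 0.0502 and 0.133. The Rtel1f/f +GFP control of both contrasts thus had little of the pattern that the +Cre and TMPyP4 libraries shared, and why was not tested. The alternatives tried were leaving out each library, the replicate block, DESeq2 1.42.0, edgeR with DESeq2 size factors, fitting the compared groups alone, no filter on low counts, a filter of 10 counts per library, and TPM. Leaving out replicate number 2 everywhere was chosen after seeing the data. The scripts were tested on simulated data. Sequences came from RefSeq windows of GRCm38.p6 and figures were drawn with matplotlib 3.10.9.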

Additional observations from a re-analysis of the deposited data

Results flagged for a closer look

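The effect of Cre was compared between lines as a difference of differences, by the edgeR contrast over all genes. For Fhl1 the effect in Rtel1f/f cells exceeded that in CA cells by 2.67 on the log2 scale and for Acta2 by 0.749. For both genes the 3 +Cre libraries were above the 3 +GFP libraries in Rtel1f/f cells and below them in CA cells. For Acta2 the gap between the libraries in Rtel1f/f cells was less than 1 CPM. That difference was short of the threshold and had the opposite sign in TPM. Both genes had been chosen from these data, so no p is given for them. That both were past the threshold for the difference of effects is a description.

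Among the contractile and adhesion genes, the effect in Rtel1f/f minus that in CA cells was 0.641 for Actn1 (edgeR adjusted p = 0.00171), 0.553 for Dstn (adjusted p = 0.00683), 0.556 for Filip1l (adjusted p = 0.00314) and -1.18 for Mylk (adjusted p = 7.9e-05). Among the regulators it was 0.463 for Rock1 (edgeR adjusted p = 0.00172) and -0.584 for Arhgef2 (adjusted p = 0.000153). Among the immediate early genes it was 0.948 for Ier3 (edgeR adjusted p = 0.00109) and -1.79 for Fos (adjusted p = 0.000632). It was 0.883 for Pdlim1 (edgeR adjusted p = 1.06e-05), -0.786 for Tgfb3 (adjusted p = 0.000469) and -0.951 for Tgfb2 (adjusted p = 0.000134).

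The difference from Trf1f/f cells uses the same Rtel1f/f libraries. It was 0.487 for Actn1 (edgeR adjusted p = 0.00975), 0.495 for Filip1l (adjusted p = 0.00588), -0.278 for Pdlim5 (adjusted p = 0.00773) and -1.08 for Mylk (adjusted p = 0.000167). Regulators gave 0.449 for Rock1 (edgeR adjusted p = 0.00175), -0.784 for Rnd3 (adjusted p = 0.000594) and -0.527 for Arhgef2 (adjusted p = 0.000292). Immediate early genes gave 1.22 for Ier3 (edgeR adjusted p = 9.65e-05), -1.74 for Fos (adjusted p = 0.000567) and -1.32 for Egr2 (adjusted p = 0.00775). LIM genes gave 0.727 for Pdlim1 (edgeR adjusted p = 5.3e-05) and -0.601 for Lpp (adjusted p = 0.00932). The TGF-beta list gave 0.341 for Skil (edgeR adjusted p = 0.00709), -2.02 for Smad6 (adjusted p = 0.00489), -1.28 for Tgfb3 (adjusted p = 2.74e-06) and -1.08 for Tgfb2 (adjusted p = 2.84e-05). Rtel1f/f +GFP stood apart from the other +GFP groups for several of these genes, and the part of that baseline in the differences was not tested.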

How the results depend on the processing

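No difference past the threshold turned direction under the edgeR and DESeq2 alternatives, but small ones short of it did. After Rtel1 deletion Srf was at -0.023 with the replicate block and -0.13 without +Cre replicate 1, and Tpm2 at -0.049 without +Cre replicate 3, and Acta2 in Trf1f/f cells was at -0.099 without +Cre replicate 3. Where a count moved by over 1.5 times the cause was not tested, unless said. With only the groups compared in the fit, which leaves fewer libraries to estimate the spread, calls among the pathway lists after Rtel1 deletion were 26 in place of 41, all genes in Rtel1f/f +Cre against TMPyP4 933 in place of 2088, and in the difference of Cre effects between Rtel1f/f and CA cells 2195 in place of 3450. In CA cells that fit gave 0 of all genes, 0 of the 10 members and 0 of the pathway lists, and in Trf1f/f cells 1 of the pathway lists. DESeq2 gave 337 of all genes and 3 of the pathway lists in CA cells, and 2 of the pathway lists in Trf1f/f cells.

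Leaving out each library in turn gave 27 to 41 pathway calls after Rtel1 deletion (27 without Rtel1f/f +GFP replicate 2), and 2466 to 4110 of all genes with TMPyP4 (2466 without +GFP replicate 2 and 2710 without +GFP replicate 3). In CA cells it gave 52 to 149 of all genes (62 without +GFP replicate 1, 71 without +GFP replicate 3, 73 without +Cre replicate 2, 52 without +Cre replicate 3), 1 to 2 of the members and 0 to 1 of the pathway lists. In Trf1f/f cells it gave 282 to 377 of all genes, where each library other than +GFP replicate 1 and +Cre replicate 3 took the count to 301 or less, and 0 to 1 of the pathway lists. Without replicate number 2 in every group, Fhl1 and Acta2 were no longer past the threshold in CA cells. In the difference of Cre effects between Rtel1f/f and CA cells Actg2, Tpm1 and Fhl2 were then lost.

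With replicate number as a block, CA cells gave 289 of all genes and 3 of the pathway lists. In Trf1f/f cells the correlations by replicate number were uneven (0.552, 0.358 and -0.0998). There the block gave 757 of all genes in place of 469 and 4 of the pathway lists. The block changed no call of a member in the comparisons of 2 groups. It put more members past the threshold in the difference of Cre effects between Rtel1f/f and Trf1f/f cells. Of all other values under the alternatives, 5598 kept their side of the threshold, 188 were no longer past it, 68 came past it and 58 moved. After Rtel1 deletion Crip1 was no longer past it in 5 of 12 alternatives. Pdlim4, Rock2, Egr1, Skil and Pdlim5 were lost in 4 each and Diaph3 in 3. With TMPyP4 Tgfb1 was lost in 4 and Smad2 in 3, and in CA cells Tgfb3 in 5.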
